A study of Mus musculus with 124 samples.

Results

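Glutamate and GABA receptor subunit genes were followed in the dorsal dentate gyrus (dDG) of mice whose mothers had or had not received human chorionic gonadotropin (hCG). They were taken by name as 33 gene symbols of the 24409 in the dDG table: 4 AMPA, 5 kainate, 1 delta, 6 NMDA and 6 metabotropic glutamate receptor genes, 9 GABA-A receptor genes and 2 GABA-B receptor genes. The list does not hold every subunit of these receptors. The study asked what hCG on the day of the ovulation trigger does to eggs, embryos and offspring, and 80 of its 124 samples, all RNA libraries, were used here. The 44 bisulfite libraries were not analysed here.

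The hCG group of the dDG comprised 6 libraries from offspring aged 8 weeks whose mothers had received hCG, and the Ctrl group 6 libraries from offspring of the same age whose mothers had not. Per the labels, hCG mothers in natural estrus were injected intraperitoneally with 7.5 IU of hCG, with no prior hormonal priming. Both groups of offspring were anaesthetised with tribromoethanol and perfused with buffered saline before dissection, and polyA RNA was sequenced. The labels give no strain, sex or litter and do not say how Ctrl mothers of these offspring were mated. They also do not state that each library came from a different animal, so p-values measure the spread between libraries, which may in part be technical. The library of hCG replicate 6 stood apart by its choroid plexus RNA, and the called genes are given with and without it. Metaphase II oocytes (6 libraries per group) and blastocysts of embryonic day 3.5 (28 per group) were used for a side comparison. The hCG oocytes were collected 14 h after injection and the Ctrl oocytes came from females housed overnight with a vasectomised male, so the groups were not matched for mating or timing.

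Ionotropic glutamate receptors are ligand-gated cation channels of the AMPA, kainate and NMDA types, and carry fast excitation at most synapses of the brain. Metabotropic glutamate receptors signal through G proteins, often from the presynaptic terminal, where they lower transmitter release. GABA-A receptors are chloride channels that carry fast and tonic inhibition, and GABA-B receptors are heterodimers coupled to G proteins that carry slow inhibition. The dentate gyrus is the entry point of the hippocampus, where granule neurons receive glutamatergic input from the entorhinal cortex under strong inhibitory control.

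The bases just upstream of a listed start site are shown for the 3 subunit genes in which the hCG and Ctrl libraries did not overlap, because the series is about DNA methylation and the windows differ in how many CpG dinucleotides, the sites of DNA methylation, they hold. Sequences are the 250 bases before a RefSeq start site (build GRCm38.p6), written 5′ to 3′ on the strand of the gene, with each CpG in capitals. For Grm2 they lie at chr9:106656110-106656359 (minus strand), for Grik3 at chr4:125490446-125490695 (plus strand) and for Gabra5 at chr7:57510060-57510309 (minus strand). The Gabra5 window is that of an internal start, the only one of the table, 80957 bases inside the gene as counted from its outermost 5′ end, so it is not comparable in position with those of Grm2 (0 bases) and Grik3 (437 bases).
Grm2: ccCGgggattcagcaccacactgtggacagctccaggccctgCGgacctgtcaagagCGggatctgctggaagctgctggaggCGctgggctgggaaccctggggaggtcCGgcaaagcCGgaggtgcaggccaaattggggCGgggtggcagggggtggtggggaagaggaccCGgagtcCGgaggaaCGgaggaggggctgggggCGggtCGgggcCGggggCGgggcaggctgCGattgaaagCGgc
Grik3: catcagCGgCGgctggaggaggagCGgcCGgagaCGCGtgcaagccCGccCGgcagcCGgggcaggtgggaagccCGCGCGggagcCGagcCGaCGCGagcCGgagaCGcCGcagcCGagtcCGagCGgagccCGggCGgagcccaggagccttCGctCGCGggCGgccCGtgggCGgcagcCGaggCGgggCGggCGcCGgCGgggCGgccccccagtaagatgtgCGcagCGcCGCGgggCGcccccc
Gabra5: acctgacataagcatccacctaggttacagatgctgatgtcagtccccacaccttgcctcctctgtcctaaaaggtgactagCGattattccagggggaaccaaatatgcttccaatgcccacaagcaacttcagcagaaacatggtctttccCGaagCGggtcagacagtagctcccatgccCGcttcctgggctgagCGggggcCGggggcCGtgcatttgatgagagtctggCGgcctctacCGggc
Grik3 held 42 CpGs, Gabbr2 37, Grm2 16, Grin2c 15 and the internal start of Gabra5 9. The median over all 32851 starts of the table was 6, with quartiles of 2 and 16, and 99.1% of starts had fewer CpGs than Grik3. Of the 33 subunit genes, 23 matched an entry, with 30 starts whose CpG numbers ran from 0 to 42 with a median of 9. On either strand, the letters GGGCGG were found in 15 of the 30 starts, against 32.74% of all starts. TATAAA was found in 3 of the 30 (12.37% of all), and TGACGTCA in 0 of the 30 (1.55% of all). Some windows overlap, so not all hits are separate: both Gabra3 windows held TATAAA, and both Grm7 windows held GGGCGG. All these counts are descriptions of letters in the windows. No methylation was measured for them here.

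Of the 33 subunit genes in the dDG, 4 were higher in hCG (Grm2, Grik3, Grin2c and Gabbr2) and 1 was lower (Gabra5). All 33 passed the filter on low counts and were tested among 13874 genes. The shares over all genes tested were 4.67% higher and 3.19% lower, 7.86% in all, at an adjusted p under 0.05 in edgeR's quasi-likelihood test with Benjamini-Hochberg adjustment. The other 28 subunit genes did not pass, and 11 of the 33 (33.3%) had an unadjusted p under 0.05, against 23.96% of all genes tested. Log2 fold changes of hCG against Ctrl were negative for 22 and positive for 11, with a median of -0.08, against 0.005 over all genes. The groups did not overlap for 2 subunit genes with hCG above (2.38% of all genes) and for 1 with hCG below (2.12%), 3 in all (4.5% of all genes).

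**Figure D1:**
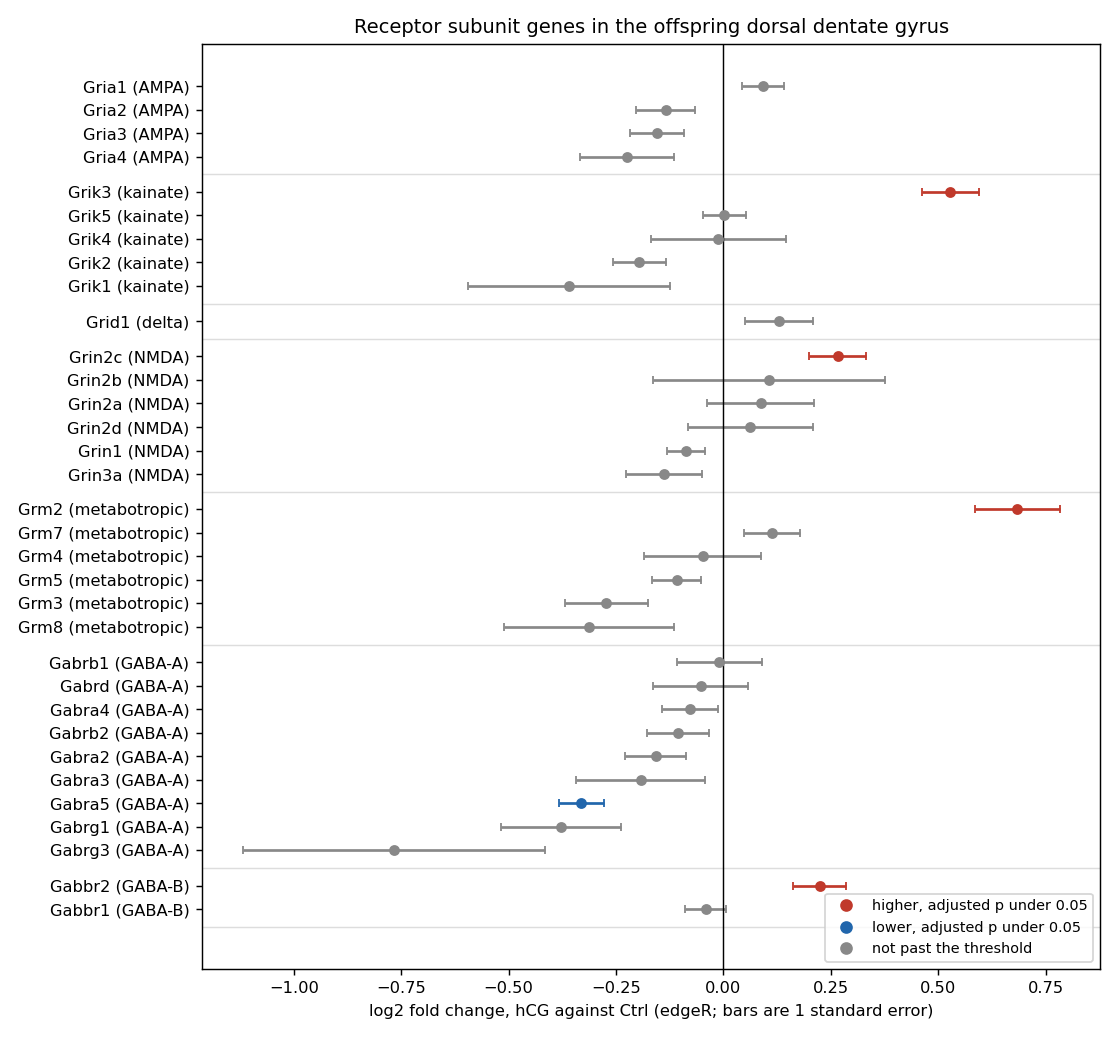
Log2 fold change of hCG against Ctrl in the dDG for each of the 33 receptor subunit genes, grouped by receptor class (bars are 1 standard error, 6 libraries per group). The 4 genes in red were higher and the gene in blue was lower at an adjusted p under 0.05. All 9 GABA-A genes lie below 0, and 1 of them passed.

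Each library of the dDG held between 14991584 and 17859654 estimated counts. Markers of dentate granule neurons and of other cell types differed between the groups or between libraries. Of 8 dentate granule neuron markers 4 were higher in hCG (Prox1, Npnt, Plk5 and Glis3). The sum of all 8 ran from 929 to 1542 CPM (counts scaled to the library total) in Ctrl, with a median of 1252. In hCG it ran from 1393 to 1729 CPM, with a median of 1529. The lowest sum was that of Ctrl replicate 1. Of 4 CA2 and CA3 pyramidal neuron markers 1 was lower, Rgs14, with sums of 150.2 to 237 CPM in Ctrl and 143 to 199 CPM in hCG. Further markers were higher in hCG, namely 3 of 5 microglia markers, 1 of 2 oligodendrocyte precursor markers (Cspg4) and 1 of 7 interneuron markers (Gad1). The sums of these lists overlapped between Ctrl and hCG. They were 154 to 186 and 176 to 222 CPM for microglia, 47.9 to 66.0 and 58.6 to 71.8 CPM for precursors, and 541 to 649 and 558 to 690 CPM for interneurons. Of the other interneuron markers, Gad2, Sst, Pvalb and Vip had negative log2 fold changes, and Lhx6 (0.003) and Npy (0.0005) hardly differed. Pdgfra was at -0.02. Of the 4 CA1, 5 astrocyte, 5 oligodendrocyte and 3 endothelial markers none passed, nor did the 6 tested choroid plexus markers. All 5 oligodendrocyte markers nevertheless had negative log2 fold changes (-0.64 to -0.18). Their sum had a median of 2067 CPM in Ctrl (1096 to 2709) and 1413 CPM in hCG (1030 to 2423). The 3 endothelial markers were positive (0.12 to 0.65), with overlapping sums. The choroid plexus sum was 31.0 to 108 CPM in Ctrl and 32.7 to 9605 CPM in hCG, where hCG replicate 6 alone held 8917 CPM of Ttr, the carrier of thyroid hormone made there. The part of these markers in the results was not tested. The models with granule neuron markers named beside single genes cannot separate it from the group, since the median of that marker sum was itself higher in hCG. In bulk tissue, fewer cells of a type and less RNA per cell cannot be told apart. In all 12 libraries Xist was at most 0.231 CPM and the Y-linked Ddx3y at least 41.1 CPM.

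Among the metabotropic receptor genes, Grm2 was higher in hCG. Grm2 encodes mGlu2, a presynaptic Gi-coupled receptor of group II that is abundant in the dentate gyrus and limits glutamate release (chr9:106644534-106656109, the whole gene). Its level ran from 135 CPM through a median of 177 to 198 CPM in Ctrl, and from 231 through 266 to 330.2 CPM in hCG. The hCG libraries all lay above the Ctrl libraries, with Ctrl replicate 1 the lowest and hCG replicate 4 the highest. The log2 fold change was 0.68 ± 0.10 (standard error, n = 6 per group, adjusted p = 0.00116), a 1.61-fold difference with a 95% interval of 0.47 to 0.89 on the log2 scale.

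Grm2 stayed past the threshold in all 22 alternative analyses, with log2 fold changes of 0.40 to 0.72. The smallest came when the log2 sum of the granule neuron markers was added to the model (0.40 ± 0.08, adjusted p = 0.0175), an alternative chosen after seeing the data. Without hCG replicate 6, the library with choroid plexus RNA, it was 0.64 ± 0.10 (adjusted p = 0.00256).

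The other 5 metabotropic genes did not pass. Grm3, which encodes the other group II receptor, mGlu3, ran from 23.9 through 28.9 to 31.9 CPM in Ctrl and from 18.7 through 23.2 to 29.3 CPM in hCG. Only 1 of the 6 hCG libraries was above the Ctrl median, and the log2 fold change was -0.27 ± 0.10 (adjusted p = 0.0991), with an adjusted p of 0.0469 without hCG replicate 4. Grm5, the Gq-coupled and mainly postsynaptic mGlu5, had the most counts among the 5, with 241 to 271 CPM in Ctrl and 214 to 262 CPM in hCG, and a log2 fold change of -0.11 ± 0.06 (adjusted p = 0.262). Its groups overlapped. The group III genes encode presynaptic receptors that also lower cAMP, and their log2 fold changes were -0.05 for Grm4, 0.11 for Grm7 and -0.31 for Grm8. Summed over the 6 metabotropic genes, the level ran from 507 to 537 CPM in Ctrl and from 556 to 658 CPM in hCG. These sums did not overlap, but they include Grm2, whose mean was 171 CPM in Ctrl and 273 CPM in hCG. The log2 fold change was negative for 4 of the 6 genes, so the sums do not show a rise across the class.

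Among the 5 kainate receptor genes, Grik3 was higher in hCG and none was lower. Grik3 encodes GluK3, a subunit of low agonist affinity found at pre- and postsynaptic sites (chr4:125490259-125714173). Its level was 46.0 CPM in the lowest, 52.0 CPM in the median and 54.5 CPM in the highest Ctrl library, and 66.6, 69.9 and 82.6 CPM in hCG. The groups did not overlap, and hCG replicates 4 and 6 stood highest. The log2 fold change was 0.53 ± 0.07 (adjusted p = 4.37e-04), a 1.44-fold difference with a 95% interval of 0.39 to 0.67 on the log2 scale. It passed in all 22 alternatives, with log2 fold changes of 0.37 to 0.56, the smallest with the granule neuron markers in the model (adjusted p = 0.0169).

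Grik2, which encodes the low-affinity subunit GluK2 and is the nearest to the threshold among the genes that did not pass, ran from 96.8 through 107 to 109.6 CPM in Ctrl and from 76.7 through 92.3 to 99.3 CPM in hCG. All 6 hCG libraries were below the Ctrl median, but the groups overlapped. Its log2 fold change was -0.20 ± 0.06 (adjusted p = 0.0620), and it passed with DESeq2 (adjusted p = 0.0268) and with library totals in place of TMM factors (adjusted p = 0.0493). Grik5 and Grik4 encode the high-affinity subunits, which need a low-affinity partner to form a channel. Grik5 had the most counts of the class and nearly equal levels, with 210.3 to 247 CPM in Ctrl and 206 to 246 CPM in hCG, and a log2 fold change of 0.002 (95% interval -0.11 to 0.11). The interval was wider for Grik4 (-0.35 to 0.33), whose Ctrl libraries ran from 44.4 to 86.1 CPM, and for Grik1 (-0.86 to 0.14), which did not exceed 8.29 CPM in any library.

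No AMPA receptor gene passed. AMPA receptors are tetramers, and the subunit encoded by Gria2 makes them impermeable to calcium. Gria1 ran from 1236 through 1272 to 1346 CPM in Ctrl and from 1215 through 1367 to 1412 CPM in hCG, with 5 of 6 hCG libraries above the Ctrl median (log2 fold change 0.09 ± 0.05, adjusted p = 0.256). Gria2 ran from 770.1 through 908 to 964 CPM in Ctrl and from 728 through 818 to 880.4 CPM in hCG, with all 6 hCG libraries below the Ctrl median (-0.13 ± 0.07, adjusted p = 0.241). Both pairs of groups overlapped. Gria3 (-0.15 ± 0.06, adjusted p = 0.147) and Gria4 (-0.22 ± 0.11, adjusted p = 0.228) did not pass either. The delta receptor gene Grid1, whose product organises synapses, was at 42.8 to 59.5 CPM in Ctrl and 47.3 to 59.6 CPM in hCG (0.13 ± 0.08, adjusted p = 0.329).

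Of 6 NMDA receptor genes, Grin2c was higher in hCG. NMDA receptors combine an obligatory subunit, encoded by Grin1, with subunits encoded by Grin2a to Grin2d or by Grin3a. Grin2c (chr11:115249169-115267297) ran from 41.0 through 45.6 to 48.4 CPM in Ctrl and from 45.8 through 54.3 to 58.4 CPM in hCG. All 6 hCG libraries were above the Ctrl median, and the groups overlapped only through hCG replicate 1, the lowest of its group. The log2 fold change was 0.27 ± 0.07 (adjusted p = 0.0229), a 1.20-fold difference. This call was lost in 4 of 22 alternatives: with the replicate number as a block (0.26 ± 0.07, adjusted p = 0.0556), with the granule neuron markers in the model (0.26 ± 0.09, adjusted p = 0.156), without Ctrl replicate 3 (0.24 ± 0.07, adjusted p = 0.0573) and without Ctrl replicate 6 (0.25 ± 0.07, adjusted p = 0.0571).

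Grin1 ran from 518 through 562 to 582 CPM in Ctrl and from 503 through 523 to 538 CPM in hCG, with every hCG library below the Ctrl median and overlapping groups (-0.09 ± 0.04, adjusted p = 0.239). The spread of Grin2b, whose product dominates in the young brain, was the widest of the class, at 33.3% of the mean in Ctrl and 36.5% in hCG (coefficient of variation), so its 95% interval ran from -0.48 to 0.70. Grin2a, whose product becomes prominent with maturation, had a log2 fold change of 0.09 ± 0.12. Grin2d (0.06 ± 0.15) and Grin3a (-0.14 ± 0.09) did not pass either.

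**Figure D2:**
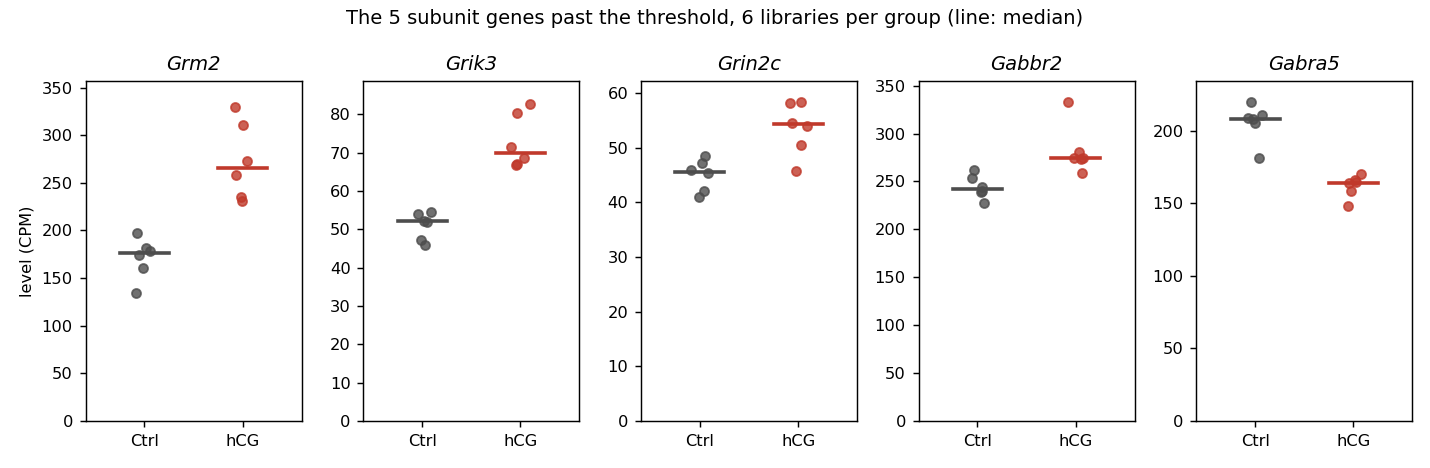
Level (CPM, axes from 0) of the 5 subunit genes past the threshold in each of the 6 Ctrl and 6 hCG dDG libraries, with the group median as a line. The groups are apart for Grm2, Grik3 and Gabra5 and overlap for Grin2c and Gabbr2.

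Of the 9 GABA-A receptor genes, Gabra5 was lower in hCG and none was higher. Gabra5 encodes the alpha5 subunit of extrasynaptic receptors that carry tonic inhibition in the hippocampus (chr7:57407669-57591016). Its level ran from 181 through 208 to 219.6 CPM in Ctrl and from 148 through 164 to 170.3 CPM in hCG. All 6 hCG libraries lay below all 6 Ctrl libraries, the nearest Ctrl library being replicate 5. The log2 fold change was -0.33 ± 0.05 (adjusted p = 0.00170), with a 95% interval of -0.44 to -0.22. It passed in 21 of 22 alternatives, and with the granule neuron markers in the model it was -0.23 ± 0.06 (adjusted p = 0.0634).

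The other 8 GABA-A genes did not pass. All 9 had a negative log2 fold change, with a median of -0.16, against 6784 negative of the 13874 genes tested. The 9 were read in the same libraries, so their signs are not independent, and a decrease across the class was not tested. The number of negative values among the 9 was 8 in 7 of the alternatives. It was 7 with the granule neuron markers in the model, where Gabra3 (0.14 ± 0.17) and Gabrb1 (0.11 ± 0.13) were positive. Gabrg1 had the smallest p of the 8 (-0.38 ± 0.14, adjusted p = 0.114), with 9.01 to 16.2 CPM in Ctrl and 7.68 to 12.7 CPM in hCG. It passed without Ctrl replicate 5 (-0.47, adjusted p = 0.0330). Gabrg3 had the lowest log2 fold change (-0.77 ± 0.35, adjusted p = 0.197) at levels of 1.30 CPM or less, where the hCG libraries ran from 0.117 to 0.994 CPM. Gabra2, whose product lies in synapses of principal neurons, was at a log2 fold change of -0.16 ± 0.07 with an adjusted p of 0.190.

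Gabrb2 encodes a beta subunit and had the most counts of the class, with 304 to 359.6 CPM in Ctrl and 254 to 343 CPM in hCG (-0.11 ± 0.07, adjusted p = 0.395). The subunits that occur together in extrasynaptic receptors of granule neurons, encoded by Gabra4 (-0.08 ± 0.07, adjusted p = 0.503) and Gabrd (-0.05 ± 0.11, adjusted p = 0.814), showed overlapping groups. Gabrd ran from 41.6 through 52.8 to 68.0 CPM in Ctrl and from 44.8 through 48.6 to 65.0 CPM in hCG. The summed level of the 9 genes was 931 to 1028 CPM in Ctrl and 786 to 927 CPM in hCG. These sums were apart by a narrow margin and include Gabra5, whose own groups were apart. For the AMPA, kainate, delta, NMDA and GABA-B genes the class sums of the groups overlapped. How often sums over other sets of genes lie apart was not examined.

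Gabbr2, which encodes the GABA-B subunit that couples to G proteins, was higher in hCG (chr4:46662318-46991714). It ran from 227 through 243 to 262 CPM in Ctrl and from 259 through 275 to 333 CPM in hCG. All 6 hCG libraries were above the Ctrl median, the groups overlapped through hCG replicate 2 and Ctrl replicate 1, and hCG replicate 6 stood apart at the top. The log2 fold change was 0.22 ± 0.06 (adjusted p = 0.0359), a 1.17-fold difference. Gabbr2 passed in only 9 of 22 alternatives, with adjusted p up to 0.156, which came with the granule neuron markers in the model (0.24 ± 0.08). It was 0.17 ± 0.05 (adjusted p = 0.0536) without hCG replicate 6, and its call was also lost without any one of Ctrl replicates 2 to 6 or hCG replicates 1, 3 and 5 (adjusted p 0.0532 to 0.0784). Gabbr1, which encodes the GABA-binding partner, ran from 625 through 652 to 716 CPM in Ctrl and from 595 through 637 to 664 CPM in hCG, with overlapping groups (-0.04 ± 0.05, adjusted p = 0.639).

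The count of subunit genes called rested in part on single libraries. Without hCG replicate 6, Grik3 was at a log2 fold change of 0.50 (adjusted p = 9.89e-04), Gabra5 at -0.31 (adjusted p = 0.00438) and Grin2c at 0.24 (adjusted p = 0.0464). With 1 library left out, 2 to 4 were higher and 1 or 2 were lower. Without Ctrl replicate 3 or Ctrl replicate 6, 2 were higher (Grm2 and Grik3), and without Ctrl replicate 5 or hCG replicate 4, 2 were lower. With the granule neuron markers in the model, 2 were higher and 0 were lower, while the calls over all genes fell from 648 higher and 443 lower to 143 and 111. The sum of these markers itself differed between the groups (median 1252 CPM in Ctrl and 1529 CPM in hCG). The model therefore cannot separate the markers from the group, and why calls were lost in it was not tested. In this model the standard error rose from 0.07 to 0.09 for Grin2c and from 0.06 to 0.08 for Gabbr2.

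Ratios of partner subunits within a library do not depend on the scaling of that library. They are described with no test, as log2 of the ratio of 2 CPM values, and since CPM is not per length only their difference between groups can be read. Gabbr2 to Gabbr1 ran from -1.46 through -1.43 to -1.38 in Ctrl and from -1.36 through -1.20 to -0.84 in hCG. Every hCG library was above every Ctrl library, and the means differed by 0.26. The nearest libraries were hCG replicate 2 at -1.359 and Ctrl replicate 2 at -1.377. How often ratios of other gene pairs lie apart was not examined, and the ratio shares its numerator with the unstable Gabbr2 call. Gria1 to Gria2 ran from 0.41 through 0.53 to 0.68 in Ctrl and from 0.64 through 0.73 to 0.89 in hCG, a difference of 0.23 with some overlap. Gabrd to Gabra5 differed by 0.29 (-1.97 ± 0.31 in Ctrl and -1.69 ± 0.22 in hCG, SD, n = 6), also with overlap. Grin2a to Grin2b, a ratio that rises as the brain matures, was 0.40 ± 0.34 in Ctrl and 0.40 ± 0.32 in hCG, and Grin3a to Grin1 was -4.28 ± 0.17 and -4.32 ± 0.13.

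**Figure D3:**
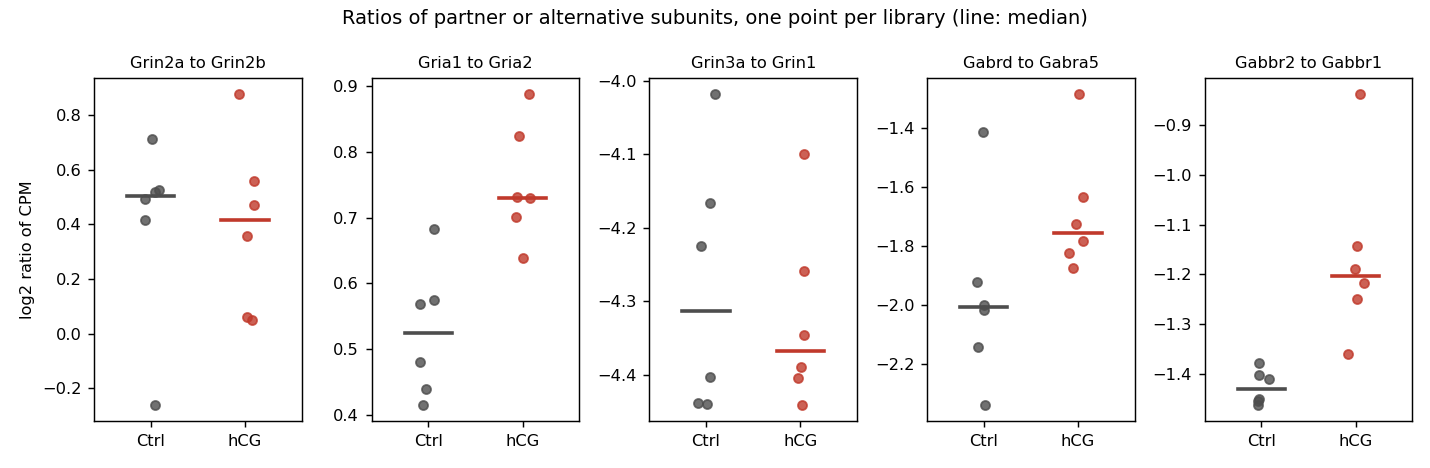
Log2 ratio of the CPM of paired or alternative subunit genes in each dDG library (6 per group, line at the median; vertical axes differ and do not start at 0). All hCG libraries lie above all Ctrl libraries for Gabbr2 to Gabbr1, with hCG replicate 6 the highest at -0.84. The margin is narrow, with hCG replicate 2 at -1.359 and Ctrl replicate 2 at -1.377.

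The dDG table lists transcripts, so the split of a subunit gene among its transcripts could be examined. Of 3116 genes with at least 2 transcripts above the low-count filter, 1 was called (0.0321%), and of the 9 subunit genes among them 0 were called (edgeR diffSpliceDGE, gene-level Simes p with Benjamini-Hochberg adjustment), while 2 had an unadjusted p under 0.05. Gria1 was one of them (p = 0.0168, adjusted p = 1.00). The share of its transcript NM_001113325 among all Gria1 counts ran from 19.2% through 26.01% to 30.4% in Ctrl and from 10.4% through 14.9% to 19.9% in hCG. That of NM_008165 ran from 68.3% through 73.4% to 80.2% in Ctrl and from 78.1% through 80.8% to 87.1% in hCG. The groups overlapped for both transcripts. The gene-level p rests on the smallest transcript, NM_001252403, which held 0% to 2.23% in Ctrl, with a median of 0.293%, and 0.692% to 7.64% in hCG, with a median of 2.69% (transcript p = 0.00559), again with overlap. The transcript p was 0.0501 for NM_001113325 and 0.679 for NM_008165.

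Grin1 was the other (p = 0.00448, adjusted p = 0.698). Its transcript NM_001177656 held 8.04% to 13.8% of Grin1 counts in Ctrl, with a median of 12.9%, and 5.10% to 9.76% in hCG, with a median of 8.22%, with overlapping groups. The remaining 7 tested genes were Gria2, Gria3, Gria4, Grik1, Grik2, Grin3a and Grm5, each with an unadjusted p of 0.763 or more. The 5 called subunit genes have 1 listed transcript each, so their split could not be examined.

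**Figure D4:**
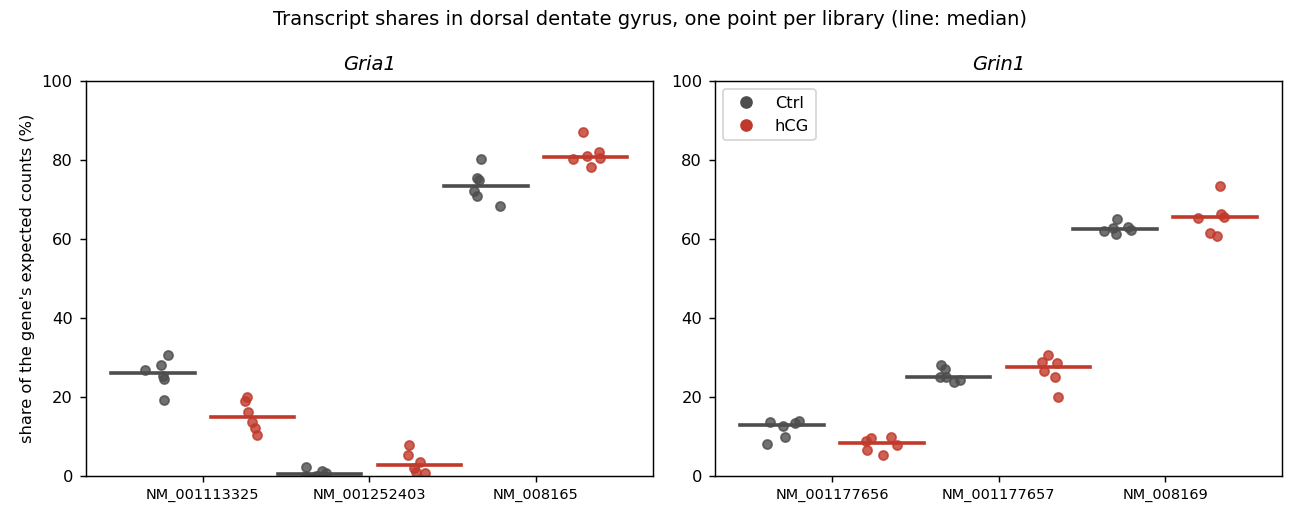
Share of a gene's estimated counts held by each of its transcripts in Gria1 and Grin1 (percent, 1 point per dDG library, line at the median, 6 libraries per group). The median share of NM_001113325 is 26.01% in Ctrl and 14.9% in hCG, and neither gene passed after adjustment.

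Other genes of glutamate and GABA transmission were read from the same fit. Of 44 genes for auxiliary subunits, transporters, enzymes and anchoring proteins, 3 were higher and 2 were lower, against the 4.67% and 3.19% over all genes, with a median log2 fold change of -0.04 and 14 (31.8%) at an unadjusted p under 0.05, against 23.96% of all genes. Among 11 AMPA receptor auxiliary genes 1 was higher, Cnih3, a cornichon protein that slows the closing of AMPA channels. Its level was 86.0 to 103.9 CPM in Ctrl and 112 to 171 CPM in hCG, with no overlap (0.62 ± 0.09, adjusted p = 0.00137). This call was lost with the granule neuron markers in the model (adjusted p = 0.0564). Of the 2 kainate receptor auxiliary genes, Neto1 was lower, with 63.9 to 99.7 CPM in Ctrl and 44.6 to 65.9 CPM in hCG (-0.46 ± 0.11, adjusted p = 0.0179). All 6 hCG libraries were below its Ctrl median, the groups overlapped slightly, and with the granule neuron markers in the model the log2 fold change was -0.16 (adjusted p = 0.409). None of the 3 pentraxin genes and none of the 9 glutamate transporter and enzyme genes passed.

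On the GABA side, Shisa7, which encodes an auxiliary subunit of GABA-A receptors, was higher, with 142 to 169 CPM in Ctrl and 191 to 222 CPM in hCG. The groups did not overlap (0.41 ± 0.05, adjusted p = 4.76e-04), and it passed in all 21 alternatives. The other 6 assembly and anchoring genes and the 4 GABA-B auxiliary genes did not pass. Of the 8 genes of GABA synthesis, transport and breakdown, Gad1, a GABA-synthesising enzyme, was higher (339 to 385 CPM in Ctrl and 382 to 424 CPM in hCG; 0.19 ± 0.05, adjusted p = 0.0336). Slc6a11, a GABA transporter of astrocytes, was lower (111.6 to 151 CPM in Ctrl and 98.9 to 112.0 CPM in hCG; -0.24 ± 0.07, adjusted p = 0.0386). Gad1 passed in 11 of 21 alternatives and Slc6a11 in 9. Without hCG replicate 6, Gad1 (adjusted p = 0.0548) and Slc6a11 (0.0652) did not pass. Cnih3 (0.57, adjusted p = 0.00234), Neto1 (-0.40, 0.0306) and Shisa7 (0.40, 0.00128) still did. With the granule neuron markers in the model, Slc6a11 was at -0.07 ± 0.06 (adjusted p = 0.683) and Gad1 at 0.19 ± 0.07 (adjusted p = 0.162). Without Ctrl replicate 1, the library with the lowest granule neuron marker sum, Neto1 was at -0.38 (adjusted p = 0.0247) and Slc6a11 at -0.18 (0.0453). Gad1 did not pass there (0.0525), while Cnih3 (0.00366) and Shisa7 (5.85e-04) did. Leaving out Ctrl replicate 2, 3, 4 or 6 or hCG replicate 2, 3, 4 or 6 left 1 lower gene of the 44. With the granule neuron markers in the model, 1 was higher and 0 were lower.

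In oocytes, 29 of the 33 subunit genes were in the table used here, with 2379861 to 6924189 counts per library. Gria3, Grin1, Grin2c and Grm5 were not analysed there. Of the 29, 7 had no count in any of the 12 libraries (Grik3, Grm7, Gabrb1, Gabrg1, Gabrd, Gabbr1 and Gabbr2), which is not detectable at this depth rather than absent. The low-count filter left 7 genes: 0 were higher and 1, Grin3a, was lower, against 1.33% higher and 2.67% lower of the 9564 genes tested (3.99% in all). No other of the 7 had an unadjusted p under 0.05. Grin3a ran from 2.52 through 4.44 to 7.98 CPM in Ctrl and from 0 through 0.513 to 2.22 CPM in hCG, from 136 counts over the Ctrl libraries and 21 over the hCG libraries. Every hCG library lay below every Ctrl library, and 2 hCG libraries had no count. The log2 fold change was -2.82 ± 0.64 (edgeR adjusted p = 0.0145), and it passed in all 16 alternatives with adjusted p up to 0.0458.

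The oocyte genes with the most counts were Grm2 and Grm4. Grm2 ran from 102.8 through 293 to 409 CPM in Ctrl and from 155 through 206 to 259 CPM in hCG. Its groups overlapped, with Ctrl replicate 4 the lowest of all 12 libraries (-0.46 ± 0.23, adjusted p = 0.293), and without that library Grm2 was called lower, which brought the count to 2. Grm4 ran from 121 through 156 to 203 CPM in Ctrl and from 88.6 through 159 to 192 CPM in hCG (-0.07 ± 0.19, adjusted p = 0.882). The other tested genes, Gria4, Grik2, Grm8 and Gabra3, did not pass.

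In blastocysts all 33 subunit genes were in the table, and 3 (Gria2, Grik1 and Gabbr2) were at 0 in all 56 libraries. Of the 5 that reached 1 CPM in at least 28 libraries, 1 was higher, Grm4, and 0 were lower, against 8.58% higher and 6.95% lower of 11330 genes (15.5% in all; limma on log2 of CPM plus 1). No other of the 5 had an unadjusted p under 0.05. Grm4 ran from 0 through 8.30 to 45.8 CPM in the 28 Ctrl libraries and from 7.26 through 17.1 to 94.5 CPM in the 28 hCG libraries. The groups overlapped over most of their range, yet 27 of 28 hCG libraries were above the Ctrl median. The difference was 0.99 ± 0.25 on the log2(CPM + 1) scale (adjusted p = 0.00563), 0.71 to 1.18 over 6 alternatives (adjusted p up to 0.0123). These include leaving out the 5 hCG libraries in which Xist and Y-linked transcripts both reached 50 CPM, which no Ctrl library did.

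Grik3 (-0.17 ± 0.23), Grin1 (0.01 ± 0.28), Grin3a (-0.30 ± 0.23) and Gabbr1 (-0.57 ± 0.29, adjusted p = 0.173) did not pass in blastocysts. Of the 5 genes called in the dDG, Grik3 was tested in blastocysts and Grm2 in oocytes, and neither passed there. Whether the difference between hCG and Ctrl itself differed between dDG, oocytes and blastocysts was not tested, since the tables were made and normalised separately.

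**Figure D5:**
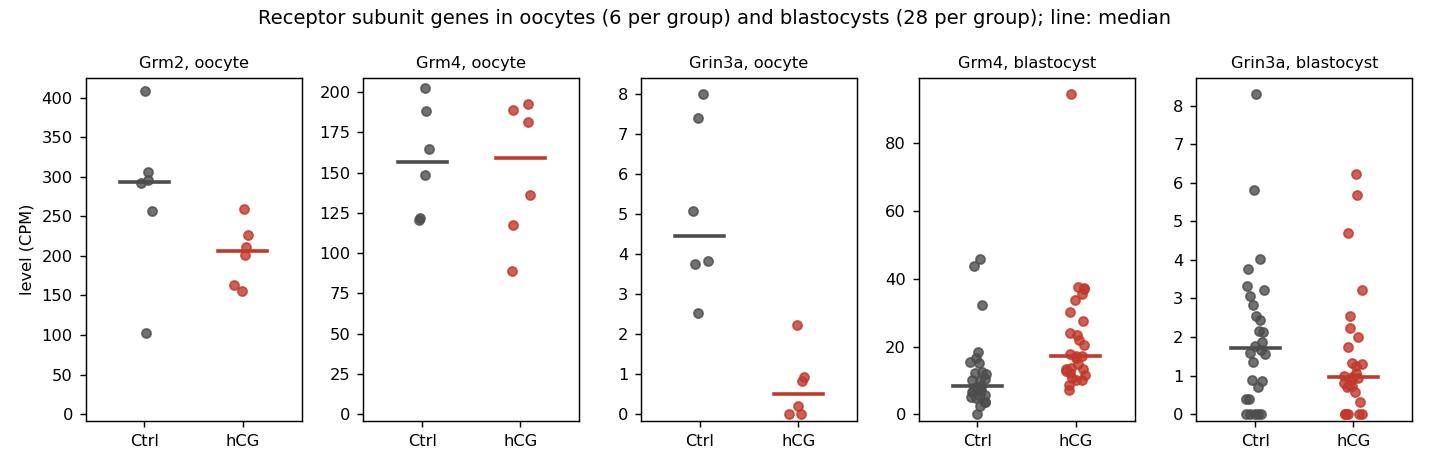
Level (CPM, linear axes) of Grm2, Grm4 and Grin3a in oocytes (6 libraries per group) and of Grm4 and Grin3a in blastocysts (28 per group), 1 point per library with the median as a line. In oocytes the Grin3a points of hCG (at most 2.22 CPM) lie below those of Ctrl (at least 2.52 CPM), and in blastocysts the Grm4 median is 8.30 CPM in Ctrl and 17.1 CPM in hCG.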

How the data were processed

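The deposited dDG table lists expected counts of RefSeq transcripts, summed here by gene symbol and rounded. Whole-number counts per symbol make up the deposited oocyte table. The deposited blastocyst table holds a signal scaled by a factor per library whose basis is not given in the sources used here, so columns were divided by their totals to give CPM. Per the submitters' processing notes, reads were handled with STAR 2.7.6a, HTSeq 0.12.4, TopHat, Trim Galore 0.6.4, Bowtie2, SAMtools 1.19.1 and Trimmomatic 0.32 on mm10 or GRCm38, with no tool tied to a table. Whether the counting used strand is also not given. Groups came from the labels.

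In R 4.3.3, dDG and oocyte counts were tested across all genes with edgeR 4.0.16 (TMM factors, default low-count filter of 10 counts and 15 in total, robust quasi-likelihood F test), blastocyst log2(CPM + 1) values with limma 3.58.1 (trend, robust; at least 1 CPM in 28 libraries), and transcript usage with edgeR's diffSpliceDGE. CPM in the text are scaled to library totals alone, without TMM factors, and so is the overlap of groups. All tests were two-sided, with Benjamini-Hochberg adjustment over the genes of a table, a threshold of 0.05 with no minimum fold. The main dDG, blastocyst and transcript usage fits, DESeq2 and voom were run on simulated data with a fixed dispersion. The oocyte table and the other alternatives were not simulated. These runs do not check any single call. The dDG table has 25 names that are dates in place of symbols, none of them read here.

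The members, gene lists and tests were chosen with earlier results of these data known. Genes were named by rule: all members by class, those past the threshold with their levels, the gene with the most counts of a class, and the called genes of the 44. The granule neuron and choroid plexus alternatives added the log2 summed CPM of those markers to the model. DESeq2 1.42.0, other normalizations, other filters, voom, a replicate block and leaving out each library were the other alternatives. Positions and sequences came from the supplied RefSeq tables (GRCm38.p6), which gave a position for all 33 members.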

Additional observations from a re-analysis of the deposited data

Results flagged for a closer look

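In 7 of 90 groups of 6 libraries examined (each subunit gene and ratio in each group of the dDG, and the tested genes in oocytes), 1 library stood apart from the rest by Dixon's criterion, which chance meets in about 1 group in 20. None of these was weighed further.

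Gabbr2 was at 332.7 CPM in hCG replicate 6, and the next hCG library was at 280.6 CPM. This library also held the choroid plexus RNA (8917 CPM of Ttr), and the part of that RNA in the Gabbr2 level was not tested; without the library Gabbr2 did not pass (adjusted p = 0.0536). Gabra5 was at 181 CPM in Ctrl replicate 5, below the next Ctrl library at 205.6 CPM and still above every hCG library. Gria1 was at 1215 CPM in hCG replicate 2, with the other hCG libraries at 1348 CPM or more. Grin2b was at 41.3 CPM in Ctrl replicate 2, with the next Ctrl library at 23.6 CPM, and the log2 ratio of Grin2a to Grin2b in that library was -0.26, against 0.42 or more in the other Ctrl libraries. Grm4 was at 7.05 CPM in hCG replicate 2, with the next at 5.44 CPM. Gabrd was at 65.0 CPM in hCG replicate 4, with the next at 49.6 CPM.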

How the results depend on the processing

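Over the alternatives run in the dDG, Grm2 and Grik3 passed in 22 of 22, Gabra5 in 21, Grin2c in 18 and Gabbr2 in 9, and all 5 kept their direction in each. The count of subunit genes called higher was 4 and became 2 with the granule neuron markers in the model, and the count lower was 1 and became 2 with DESeq2 and 2 with library totals only, and 0 with the granule neuron markers. Leaving out 1 library gave 2 to 4 higher and 1 to 2 lower. Of the 44 other genes, 1 was lower with the choroid plexus markers in the model, and with the granule neuron markers 1 was higher and 0 were lower. Leaving out 1 library gave 1 to 2 lower. In oocytes 2 were lower without Ctrl replicates 2 and 4, and leaving out 1 library gave 1 to 2. The cause of these changes was not tested. Calls over all dDG genes were 648 higher and 443 lower, 872 and 715 with DESeq2, 420 and 331 with the most abundant transcript only, and 395 to 684 higher and 254 to 547 lower with 1 library left out.

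With the replicate number as a block, 2 subunit genes were higher and 1 lower, 0 of the 44 other genes were lower, and 388 genes were higher and 195 lower. Gabbr2 (adjusted p = 0.0680), Grin2c (0.0556), Gad1 (0.0579), Neto1 (0.0548) and Slc6a11 (0.0928) were no longer past the threshold. The block changed no other call of a subunit gene, in any of the 3 tables. The numbers are not shown to pair the samples: same-numbered dDG libraries correlated at -0.20 to 0.08, and none correlated best with its own number.

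Counting depth limits the embryo comparison, in which 7 of 29 subunit genes had enough counts in oocytes and 5 of 33 enough signal in blastocysts. CPM is not scaled to transcript length, so levels of different genes are not comparable. Litter and separate animals are not given in the labels, and DNA methylation was not analysed here.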
